A study of Homo sapiens with 9 samples.

Results

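Expression of 10 genes that restrain MAP kinase signalling or act downstream of it was described in FaDu, a cell line from a squamous carcinoma of the human hypopharynx. The genes were taken by symbol, and each had 1 row among the 58735 genes of the raw count table. They comprise the dual-specificity phosphatases DUSP1, DUSP4, DUSP5, DUSP6 and DUSP7, the pathway inhibitors SPRY2, SPRY4 and SPRED1, and the ETS transcription factors ETV4 and ETV5. All 10 had enough counts to enter the test, which covered 16812 genes. Bulk RNA sequencing gave 9 libraries in 3 groups of 3 biological replicates. The control group carries the genotype label WT, another group the label AMIGO2 knockdown, and the remaining group the label AMIGO2 knockdown together with CAPN2 overexpression. None of the 9 libraries came from treated cells, all cells were cultured in MEM with serum, and all groups share the single FaDu background. How AMIGO2 was lowered or CAPN2 raised is not given in the sources used here.

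The ERK branch of MAP kinase signalling carries growth factor signals from RAS through RAF and MEK to the kinase ERK, which then changes transcription in the nucleus. Several of the genes that ERK switches on encode its own brakes: dual-specificity phosphatases remove the activating phosphates from MAP kinases, and Sprouty and Spred proteins act between the receptor and RAF. ETV4 and ETV5 belong to the PEA3 subfamily of ETS activators, whose transcription is held down by the repressor Capicua until ERK relieves it. Transcripts of these genes are widely read as markers of ERK output in epithelial tumours, although each also has other inputs. ERK phosphorylation itself was not measured in these libraries.

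The library labels were first set against AMIGO2, a leucine-rich repeat adhesion protein, and CAPN2, the catalytic subunit of a calcium-dependent protease. AMIGO2 stood at 27.6 ± 1.73 CPM (counts scaled to a common library total, SD, n = 3) in the control libraries. It stood at 27.7 ± 3.41 CPM in the libraries with the knockdown label alone and at 39.0 ± 3.79 CPM in those that also carry the CAPN2 label. The difference with the knockdown label alone was 0.0065 on the log2 scale (95% interval -0.23 to 0.25, edgeR adjusted p = 0.971), so no loss of the transcript was seen, and 123 of its exon bases are shared with PCED1B on the opposite strand. With both labels AMIGO2 was higher than in control, by 0.50 ± 0.114 (adjusted p = 0.00106). CAPN2 with both labels did not pass against control, at 499 against 462 CPM, a difference of 0.11 (95% interval -0.057 to 0.28, adjusted p = 0.254). It passed with upper-quartile scaling (0.0278), which also moved the median over all tested genes from 0.02 to 0.13. It passed as well in a fit of only the groups compared (0.0389), but was -0.014 with a correction for GC content and length (0.861). With the knockdown label alone CAPN2 did not pass against control (-0.15, edgeR adjusted p = 0.166), but was called lower with that correction (-0.22, adjusted p = 0.0102). It was higher with both labels than with the knockdown label alone by 0.26 ± 0.079 on the log2 scale (edgeR adjusted p = 0.012), with 499 ± 1.29 against 418 ± 20.3 CPM (SD, n = 3). That call was lost without the filter on low counts (adjusted p = 0.0871) and without replicate 1 of the group with both labels (0.0601). The groups are accordingly named by their labels, as knockdown-labelled and, for the group that carries both labels, CAPN2-labelled. Totals ran from 15158607 to 19737562 counts per library, and 3 counts corresponded to between 0.149 and 0.203 CPM, limits that cover counting error only. All 8 squamous epithelial markers were tested, with summed levels of 7320 to 7768 CPM in control, 3849 to 4770 in knockdown-labelled and 4478 to 5023 in CAPN2-labelled libraries. Most of that drop was KRT5, with group means of 4437, 1207 and 1616 CPM, while the group means of CDH1 were 381, 455 and 614 CPM. The knockdown-labelled libraries differed more among themselves, with a mean chi-square per gene of 20.9 to 21.5 between libraries, than the controls (2.69 to 5.04) or the CAPN2-labelled libraries (3.01 to 7.52). Of the other markers, 1 of 8 for fibroblasts, 2 of 6 for endothelium and 1 of 8 for blood and immune cells passed the filter on low counts. Summed levels in the same order of groups were 8.25 to 9.78, 11.0 to 14.0 and 13.5 to 15.6 CPM for fibroblasts, and 14.7 to 18.6, 18.9 to 25.3 and 5.68 to 9.06 CPM for blood and immune cells. The part of these shifts in the results given here was not tested. LUM, PDGFRA, KDR, EMCN, MS4A1 and HBB had 0 counts in all 9 libraries.

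Between the knockdown-labelled libraries and the controls, the phosphatases DUSP1, DUSP4 and DUSP6 and the inhibitors SPRY2 and SPRY4 rose, while the phosphatase DUSP7 and both PEA3 factors fell. The rises reached 5.09-fold for DUSP4 and 2.74-fold for DUSP1, and the deepest fall was that of ETV5, to 0.487 of its control level. Thus 8 of 10 genes passed an adjusted p of 0.05 in edgeR's quasi-likelihood test, 5 higher and 3 lower, where 34.6% of all tested genes passed, 16.0% higher and 18.5% lower. Rises of at least 2-fold were called for 4 of 10 genes (DUSP1, DUSP4, DUSP6 and SPRY2), against 4.27% of all tested genes, and a fall of that size for 1 of 10 (ETV5), against 2.34%. Non-overlapping groups were found for 8 of 10 genes and for 44.7% of all tested genes. The median difference was 0.34 on the log2 scale over the 10 genes and -0.01 over all tested genes. The 10 genes were chosen with earlier results of these data known. These shares and medians, and those of the next comparisons, are therefore a description and not a test of the set. In bulk RNA, fewer cells that express a gene and less of its RNA per cell cannot be told apart.

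Set against the controls, the CAPN2-labelled libraries had higher DUSP1, DUSP6 and SPRY2 and lower DUSP7, SPRED1, ETV4 and ETV5. That is 7 of 10 genes, 3 higher and 4 lower, where 56.3% of all tested genes passed, 27.9% higher and 28.4% lower, so the share called was not far above that background. Changes of at least 2-fold were called upwards for 1 of 10 genes (DUSP1), against 11.6% of all tested genes, and downwards for 2 of 10 (DUSP7 and ETV4), against 7.49%. Non-overlapping groups were found for 8 of 10 genes and for 66.9% of all tested genes here. Against the knockdown-labelled libraries, DUSP1, DUSP4, DUSP7, SPRY2, SPRED1 and ETV4 were lower and ETV5 was higher. In this comparison 7 of 10 genes were called, 1 higher and 6 lower, where 49.2% of all tested genes were called, 23.7% higher and 25.6% lower. Rises of at least 2-fold were called for 0 of 10 genes, against 8.61% of all tested genes, and a fall of that size for 1 of 10 (DUSP4), against 4.9%. Groups were without overlap for 9 of 10 genes and for 54.0% of all tested genes. The median over the 10 genes was -0.37 on the log2 scale, and 0.01 over all tested genes. The 3 comparisons share libraries pairwise, so their values are set side by side and not counted as separate evidence.

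**Figure D1:**
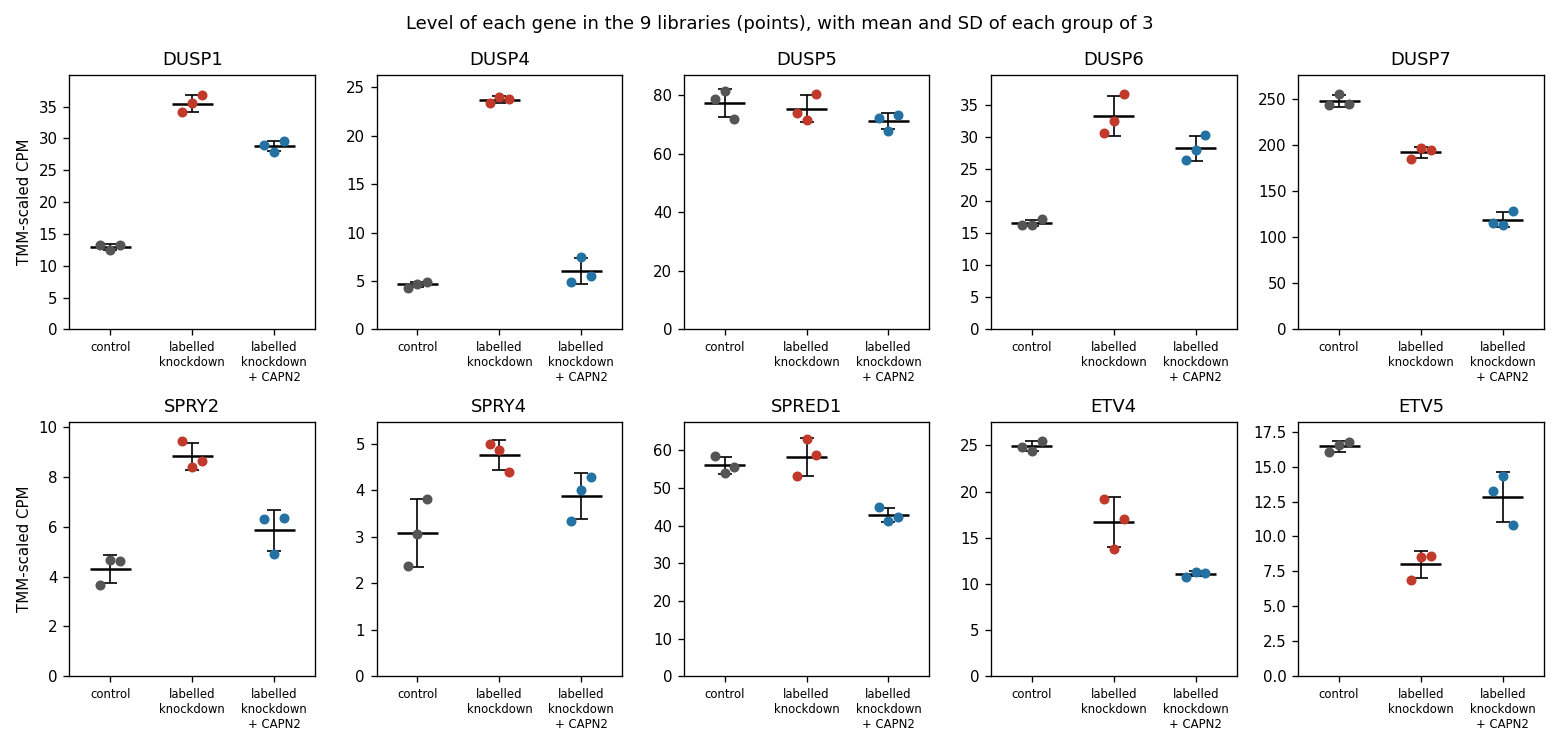
Level of each of the 10 genes in TMM-scaled CPM (vertical axes, each starting at 0) in the 9 libraries (points), by group on the horizontal axis, with the mean (line) and SD (bars) of each group of 3. DUSP4 reaches 23.4 to 24.0 CPM in the knockdown-labelled libraries and stays at or below 7.50 CPM in the other 6, whereas the levels of DUSP5 overlap in all 3 groups.

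DUSP1, also called MKP-1, is a nuclear phosphatase of the immediate early class that acts on p38 and JNK as well as ERK. Its gene lies at chr5:172768090-172771195 (GRCh38, minus strand). Its proximal promoter is shown because it held matches to 2 of the motifs searched, a CREB/ATF site (TGACGTCA) and a TATA box (TATAAA), both in capitals. It is the 150 bases before the RefSeq start (GRCh38.p14, chr5:172771196-172771345, minus strand, 5′ to 3′).
DUSP1 promoter: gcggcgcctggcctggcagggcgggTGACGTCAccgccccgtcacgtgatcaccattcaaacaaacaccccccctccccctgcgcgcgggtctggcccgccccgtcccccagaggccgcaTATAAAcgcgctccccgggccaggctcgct
The first base of the CREB/ATF match lies 125 bases before the start, and that of the TATA box 30 bases before it. Of 35116 RefSeq windows of 300 bases (250 before and 50 after a start), 1.85% held TGACGTCA and 11.5% held TATAAA on either strand.

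In the controls DUSP1 measured 13.2, 12.4 and 13.2 CPM. The knockdown-labelled libraries gave 34.1, 35.5 and 36.9 CPM, and the CAPN2-labelled libraries gave 29.0, 27.9 and 29.6 CPM. The 3 groups did not overlap, with the controls lowest and the knockdown-labelled libraries highest. The gain over control was 1.45 ± 0.105 on the log2 scale (SE, adjusted p = 5.91e-09) in the knockdown-labelled libraries and 1.15 ± 0.105 (adjusted p = 2.71e-08) in the CAPN2-labelled libraries. Between these latter groups DUSP1 fell by 0.30 ± 0.099 (adjusted p = 0.017). That smaller step no longer passed with upper-quartile scaling (adjusted p = 0.0507), with a correction for GC content and length (-0.20, adjusted p = 0.0593) or without replicate 2 of the CAPN2-labelled group (adjusted p = 0.0714). Upper-quartile scaling also moved the median over all tested genes between the labelled groups, from 0.01 to 0.07.

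DUSP4, or MKP-2, is a nuclear phosphatase that acts on ERK and JNK and is itself induced by ERK. Its gene lies at chr8:29333064-29350668 (GRCh38, minus strand). It was scarce in the controls, at 4.33, 4.72 and 4.92 CPM. The knockdown-labelled libraries held 23.4, 24.0 and 23.8 CPM, and the CAPN2-labelled libraries held 4.94, 7.50 and 5.57 CPM. The knockdown-labelled libraries thus lay far above both other groups, with a spread among replicates (SD 0.312 CPM) below that of the CAPN2-labelled group (SD 1.34 CPM). The rise over control was 2.35 ± 0.153 on the log2 scale (adjusted p = 1.77e-09). From the knockdown-labelled libraries to the CAPN2-labelled libraries, DUSP4 fell by 1.98 ± 0.148 (adjusted p = 3.76e-09), a level 0.253 of the former.

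Whether DUSP4 returned fully to the control level was less certain. The CAPN2-labelled libraries all lay above the controls, the lowest at 4.94 against a highest control of 4.92 CPM. The difference of 0.37 ± 0.167 on the log2 scale had a 95% interval from 0.017 to 0.72 and an adjusted p of 0.069. It passed with upper-quartile scaling (0.47, adjusted p = 0.0219), with the GC and length correction (adjusted p = 0.0223) and without replicate 1 of the CAPN2-labelled group (0.49, adjusted p = 0.0269). Upper-quartile scaling also raised the median over all tested genes, from 0.02 to 0.13. The summed level of the endothelial markers was 17.6 to 22.5 CPM in control, 43.3 to 49.5 in knockdown-labelled and 16.2 to 16.5 in CAPN2-labelled libraries. Most of this sum was CDH5, a cadherin, at 14.8, 43.2 and 13.7 CPM in the group means, and its part in the result was not tested. VWF did not share this order and was lower in both labelled groups, at 5.67, 2.44 and 2.61 CPM. KDR and EMCN had 0 counts and PECAM1 had 11 counts in the 9 libraries together.

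DUSP5 is the nuclear phosphatase specific for ERK, which it also anchors in the nucleus. The gene lies at chr10:110497838-110511544 (GRCh38, plus strand). Controls gave 78.6, 81.2 and 71.9 CPM, knockdown-labelled libraries 74.0, 71.5 and 80.4 CPM, and CAPN2-labelled libraries 72.2, 67.8 and 73.2 CPM. All 3 groups overlapped. The differences were -0.04 (95% interval -0.23 to 0.15) for knockdown-labelled against control, -0.12 (-0.31 to 0.069) for CAPN2-labelled against control and -0.08 (-0.27 to 0.11) between the labelled groups, on the log2 scale. None passed, with adjusted p of 0.789, 0.272 and 0.467. Their sign turned with the GC and length correction, to 0.11, 0.15 and 0.039, where again none passed.

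DUSP6, or MKP-3, is the cytoplasmic phosphatase that is highly selective for ERK and a standard readout of FGF and ERK signalling. The gene lies at chr12:89347232-89353271 (GRCh38, minus strand). Its levels were 16.4, 16.3 and 17.2 CPM in the controls, 30.7, 32.6 and 36.9 CPM in the knockdown-labelled libraries, and 26.5, 28.0 and 30.4 CPM in the CAPN2-labelled libraries. Both labelled groups lay wholly above the controls. Against control, DUSP6 rose by 1.00 ± 0.110 on the log2 scale (adjusted p = 1.57e-06) in the knockdown-labelled libraries and by 0.77 ± 0.111 (adjusted p = 9.2e-06) in the CAPN2-labelled libraries. The nearest libraries of the labelled groups stood at 30.7 and 30.4 CPM, and the difference was -0.24 ± 0.107 (95% interval -0.46 to -0.014, adjusted p = 0.0726). It passed without knockdown-labelled replicate 1 (-0.30, adjusted p = 0.029) or replicate 2 (-0.29, adjusted p = 0.041). On the opposite strand AC024909.2 shares 1875 exon bases with DUSP6, and it had 23 counts in the 9 libraries together. Reads of these bases cannot be assigned by strand, so reads of DUSP6 may be missing from its count.

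DUSP7, also named MKP-X or PYST2, is another cytoplasmic phosphatase that prefers ERK. The gene lies at chr3:52048919-52056550 (GRCh38, minus strand). Controls held 243, 256 and 245 CPM. The knockdown-labelled libraries held 186, 196 and 195 CPM and the CAPN2-labelled libraries 115, 113 and 129 CPM. DUSP7 therefore stepped down from group to group with no overlap, the reverse of DUSP1 and DUSP6 against control. It fell by 0.37 ± 0.082 on the log2 scale in the knockdown-labelled libraries (adjusted p = 0.00196) and by 1.06 ± 0.084 in the CAPN2-labelled libraries (adjusted p = 4.03e-09), both against control. The fall between the labelled groups was 0.69 ± 0.083 (adjusted p = 1.59e-06). Transcript GC content was 59.2% for DUSP7, above that of 84.2% of tested genes, and differences from control fell with GC content over all tested genes (Spearman's rho -0.36 for knockdown-labelled against control, 16802 genes, which are not independent replicates). With the GC and length correction, the first of these falls shrank to -0.14 and did not pass (adjusted p = 0.0974), while the other falls did, at -0.84 and -0.70.

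**Figure D2:**
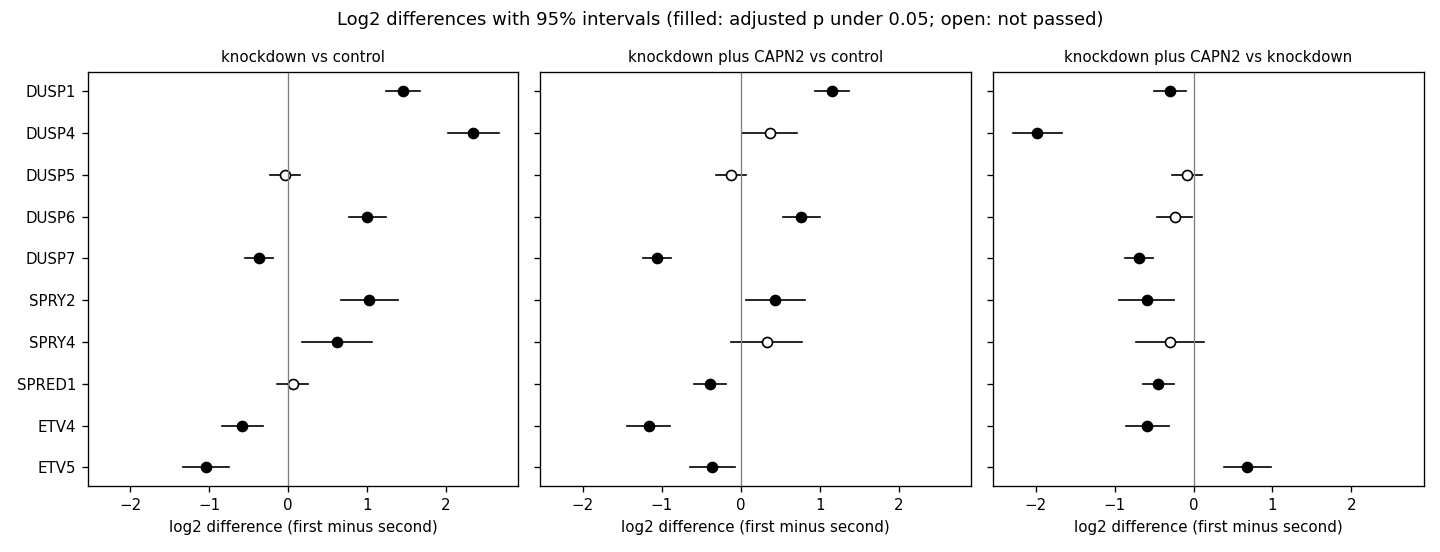
Log2 difference of each gene (horizontal axis, first-named group minus second) in the 3 comparisons (panels), with 95% intervals from the fit to 9 libraries; filled points passed an adjusted p of 0.05. DUSP4 has the widest displacement, 2.35 in the left panel and -1.98 in the right, and ETV5 is the only gene below 0 in the left panel and above 0 in the right.

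Taken per kilobase of gene length, where levels of different genes can be set side by side, DUSP7 and DUSP5 were the most abundant of the 10 genes in the controls. Their means were 43.9 ± 1.24 and 29.5 ± 1.83 CPM per kilobase (SD, n = 3). ETV4 (6.91 ± 0.158), SPRED1 (6.77 ± 0.279) and DUSP1 (6.41 ± 0.221) came next, and neighbours among these 3 did not differ beyond 2 SD. Below them stood DUSP6 (3.59 ± 0.109), ETV5 (2.84 ± 0.067), SPRY2 (1.42 ± 0.187), DUSP4 (0.641 ± 0.041) and SPRY4 (0.469 ± 0.110). DUSP4 and SPRY4 did not differ beyond 2 SD of SPRY4 either. The value of DUSP6, here and in the shares below, may be too low because of the exon bases it shares with AC024909.2. That of ETV5 may be too low because of exon bases shared with DGKG. In the knockdown-labelled libraries DUSP1 moved to the third place with 17.6 ± 0.687 CPM per kilobase, and DUSP4 (3.27 ± 0.043) passed SPRY2 and ETV5. In the CAPN2-labelled libraries the leading pair changed places, with DUSP5 at 27.2 ± 1.10 and DUSP7 at 21.1 ± 1.47 CPM per kilobase.

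The 5 phosphatases made up different shares of their summed level in the 3 groups. The sum was 81.7 to 86.7 CPM per kilobase in the controls, 87.9 to 94.7 in the knockdown-labelled libraries and 66.9 to 72.7 in the CAPN2-labelled libraries. DUSP7 made up 52.2% ± 0.777 of it in the controls (SD, n = 3), 37.5% ± 1.11 in the knockdown-labelled libraries and 30.3% ± 0.861 in the CAPN2-labelled libraries. The share of DUSP1 went from 7.64% ± 0.475 to 19.3% ± 0.164 and 20.6% ± 0.387 in the same order, and that of DUSP6 from 4.28% ± 0.248 to 7.92% ± 0.438 and 8.80% ± 0.408. DUSP4 contributed 0.764% ± 0.060, 3.60% ± 0.124 and 1.20% ± 0.304. No test was made of these shares, which add up to a fixed total and so depend on one another.

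**Figure D3:**
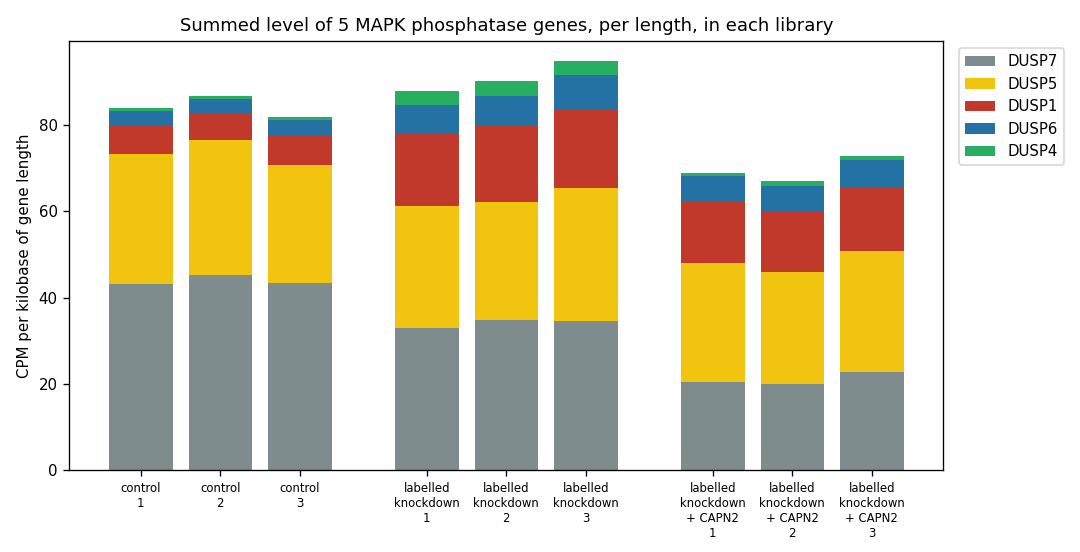
Summed level of the 5 MAP kinase phosphatase genes in CPM per kilobase of gene length (vertical axis from 0) in each of the 9 libraries (bars), split by gene (colours). The DUSP7 portion averages 52.2% in the control bars and 30.3% in the CAPN2-labelled bars, and the DUSP1 portion 7.64% and 20.6%.

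SPRY2 is a Sprouty protein induced by growth factors that limits signalling from receptor tyrosine kinases to ERK. The gene lies at chr13:80335976-80340951 (GRCh38, minus strand). RefSeq gives 3 promoter windows for it, of which 1 held an ETS core (CCGGAA, in capitals), the motif that PEA3 factors bind. The stretch around it is shown for that reason and starts 160 bases before that RefSeq start (GRCh38.p14, chr13:80341227-80341286, minus strand, 5′ to 3′), with the first base of the match 142 bases before it. That start, chr13:80341126, lies upstream of the gene span given above, which ends at 80340951. The other windows, with starts at 80340108 and 80339659 inside the span, held no match to any motif searched.
SPRY2 promoter: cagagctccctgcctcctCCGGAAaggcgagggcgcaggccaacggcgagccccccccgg
The ETS core was held by 17.2% of all windows. Windows were used for 6 of the 10 genes (DUSP1, DUSP6, DUSP7, SPRY2, SPRY4 and SPRED1). They held no match to the Capicua octamers TGAATGAA (1.65% of all windows) and TCAATGAA (0.718%), the AP-1 site TGACTCA (4.95%), the CREB/ATF variant TGACGCAA (0.513%) or the CArG box (1.29%).

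SPRY2 measured 3.65, 4.66 and 4.61 CPM in the controls, 9.44, 8.41 and 8.61 CPM in the knockdown-labelled libraries, and 6.30, 4.90 and 6.36 CPM in the CAPN2-labelled libraries. The 3 groups did not overlap, and the last lay between the others. It rose by 1.03 ± 0.172 on the log2 scale in the knockdown-labelled libraries (adjusted p = 0.000141) and fell by 0.59 ± 0.166 from there to the CAPN2-labelled libraries (adjusted p = 0.00619). Its remaining excess over control, 0.44 ± 0.178, passed narrowly (adjusted p = 0.0429). That call was lost in DESeq2 (adjusted p = 0.11), without the filter on low counts (0.113) and without any 1 of control replicates 1, 2 and 3 or of CAPN2-labelled replicates 1 and 3, with adjusted p of 0.181, 0.0605, 0.0651, 0.127 and 0.139.

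SPRY4, a Sprouty protein with a similar role, had the fewest counts of the 10 genes, 149 over the 3 controls together. The gene lies at chr5:142310427-142326455 (GRCh38, minus strand). Its levels were 2.37, 3.06 and 3.81 CPM in the controls, 5.01, 4.88 and 4.39 CPM in the knockdown-labelled libraries, and 3.33, 4.02 and 4.28 CPM in the CAPN2-labelled libraries. The knockdown-labelled libraries were highest, and the other groups overlapped. SPRY4 rose by 0.62 ± 0.211 on the log2 scale in the knockdown-labelled libraries against control (adjusted p = 0.0279). This call was lost in DESeq2 (adjusted p = 0.0515), without control replicate 1 (0.137) or 2 (0.08) and without knockdown-labelled replicate 1 (0.0579) or 2 (0.0534). The differences of the CAPN2-labelled libraries were 0.33 ± 0.216 from control (adjusted p = 0.21) and -0.30 ± 0.205 from the knockdown-labelled libraries (adjusted p = 0.246).

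SPRED1 binds the RAS inhibitor neurofibromin and brings it to the membrane. The gene lies at chr15:38252326-38357249 (GRCh38, plus strand). Its levels were 58.4, 53.9 and 55.4 CPM in the controls, 53.1, 63.1 and 58.6 CPM in the knockdown-labelled libraries, and 45.0, 41.3 and 42.2 CPM in the CAPN2-labelled libraries. Only the last group stood apart, below both others. It was lower than control by 0.39 ± 0.096 on the log2 scale (adjusted p = 0.00209) and lower than the knockdown-labelled libraries by 0.44 ± 0.096 (adjusted p = 0.000754). The difference between knockdown-labelled and control libraries was 0.06 ± 0.095 (95% interval -0.14 to 0.26, adjusted p = 0.665). SPRED1 has a low GC content of 38.9%, and the GC and length correction enlarged its fall against control to -0.75 and turned the knockdown-labelled difference to -0.16 (adjusted p = 0.0906).

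ETV4 and ETV5 are close relatives that bind the same ETS sequence, and both are classical transcriptional targets of the ERK pathway. ETV4 lies at chr17:43527844-43579620 (GRCh38, minus strand) and ETV5 at chr3:186046308-186110318 (GRCh38, minus strand). Both fell in both labelled groups, but by unlike amounts. ETV4 measured 24.8, 24.4 and 25.5 CPM in the controls, 19.2, 13.8 and 17.0 CPM in the knockdown-labelled libraries, and 10.8, 11.3 and 11.1 CPM in the CAPN2-labelled libraries. It went down in a step from each group to the next without overlap, with the widest spread in the knockdown-labelled libraries. Against control it fell by 0.58 ± 0.124 on the log2 scale in the knockdown-labelled libraries (adjusted p = 0.00127) and by 1.17 ± 0.129 in the CAPN2-labelled libraries (adjusted p = 3.08e-07). Between the labelled groups it fell by 0.58 ± 0.130 (adjusted p = 0.001). The GC content of ETV4 was 60.8%, and the GC and length correction left falls against control of -0.36 (adjusted p = 0.00815) and -0.83 (adjusted p = 9.36e-07). ETV4 shares 68 exon bases with DHX8 on the opposite strand, which had 86.0 to 111 CPM, and reads of these bases cannot be assigned by strand.

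ETV5 measured 16.0, 16.6 and 16.8 CPM in the controls, 6.87, 8.51 and 8.61 CPM in the knockdown-labelled libraries, and 13.3, 14.4 and 10.8 CPM in the CAPN2-labelled libraries. The knockdown-labelled libraries were lowest and the CAPN2-labelled libraries lay between them and the controls, with no overlap. ETV5 fell by 1.04 ± 0.141 on the log2 scale in the knockdown-labelled libraries against control (adjusted p = 1.7e-05). From these to the CAPN2-labelled libraries it rose by 0.68 ± 0.143 (adjusted p = 0.000613), the only rise among the 10 genes in that comparison. Its remaining deficit against control, -0.36 ± 0.137, passed narrowly (adjusted p = 0.0311). That call was lost in DESeq2 (adjusted p = 0.05 after rounding), with upper-quartile scaling (adjusted p = 0.112), with the GC and length correction (0.0647) and without any 1 of control replicates 1, 2 and 3 or of CAPN2-labelled replicates 1 and 3, with adjusted p of 0.0519, 0.0664, 0.0783, 0.053 and 0.154. Without the last of these the deficit was -0.26. Upper-quartile scaling also moved the median over all tested genes in that comparison, from 0.02 to 0.13. ETV5 shares 164 exon bases with DGKG on the same strand, which had 0 counts in the 9 libraries. Reads of these bases may be missing from the count of ETV5.

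The balance of both factors shifted accordingly. The ratio of ETV4 to ETV5 per length was 2.49, 2.37 and 2.45 in the controls, 4.48, 2.61 and 3.18 in the knockdown-labelled libraries and 1.31, 1.27 and 1.65 in the CAPN2-labelled libraries. The 3 groups did not overlap in this ratio, which was not tested. Reads lost from ETV4 or ETV5 at the exon bases they share with other genes would bias it.

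Other members of the same families also divided by direction. Of 5 other MAP kinase phosphatases, 2 rose, 1 fell and 2 did not pass in the knockdown-labelled libraries against control, and 2 rose, 2 fell and 1 did not pass in the CAPN2-labelled libraries, where 34.6% and 56.3% of all tested genes passed. DUSP10, which acts on p38 and JNK, went from 3.41 CPM in control to 15.3 in the knockdown-labelled libraries, a rise of 2.17 ± 0.157 on the log2 scale (adjusted p = 6.52e-09), and stood at 7.81 CPM in the CAPN2-labelled libraries. Its fall between the labelled groups was 0.97 ± 0.143 (adjusted p = 1.53e-05), so DUSP10 was highest in the same group as DUSP4. DUSP8, a phosphatase of JNK and p38, rose against control in both labelled groups, by 0.79 ± 0.170 and 0.84 ± 0.170. DUSP9, an ERK-selective cytoplasmic phosphatase, fell in both, with log2 differences of -1.50 ± 0.213 and -1.74 ± 0.220. DUSP2, a nuclear phosphatase, fell in the CAPN2-labelled libraries against control (-1.87 ± 0.229) and against the knockdown-labelled libraries (-1.65 ± 0.230). DUSP16 passed in none of the 3 comparisons.

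Among 4 other Sprouty and Spred genes, 1 rose and 3 did not pass in the knockdown-labelled libraries against control, where 34.6% of all tested genes passed. SPRED3 rose there 2.47-fold (adjusted p = 0.000762) and fell by 1.15 ± 0.257 on the log2 scale between the labelled groups (adjusted p = 0.00107). In the CAPN2-labelled libraries 1 of the 4 rose against control and 2 fell, where 56.3% of all tested genes passed. SPRY3 rose by 1.33 ± 0.246 (adjusted p = 0.00014), whereas SPRED2 fell by 0.41 ± 0.096 (adjusted p = 0.0014), close in size to SPRED1. SPRY1 fell by 1.39 ± 0.520 (adjusted p = 0.0296) from 0.905 CPM in control, a call lost in DESeq2 (adjusted p = 0.0737) and without control replicate 2 (0.148) or CAPN2-labelled replicate 2 (0.0897) or 3 (0.12). ETV1, the remaining PEA3 factor, had 2.35, 2.42 and 1.33 CPM in the control, knockdown-labelled and CAPN2-labelled group means. Its fall in the CAPN2-labelled libraries was 0.82 ± 0.299 against control (adjusted p = 0.026) and 0.86 ± 0.295 against the knockdown-labelled libraries (adjusted p = 0.0206). The former was lost in DESeq2 (0.0608) and without control replicate 2 (0.0611) or 3 (0.0527) or CAPN2-labelled replicate 1 (0.0651) or 3 (0.11), and the latter without knockdown-labelled replicate 2 (0.0797) or CAPN2-labelled replicate 3 (0.0946).

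**Figure D4:**
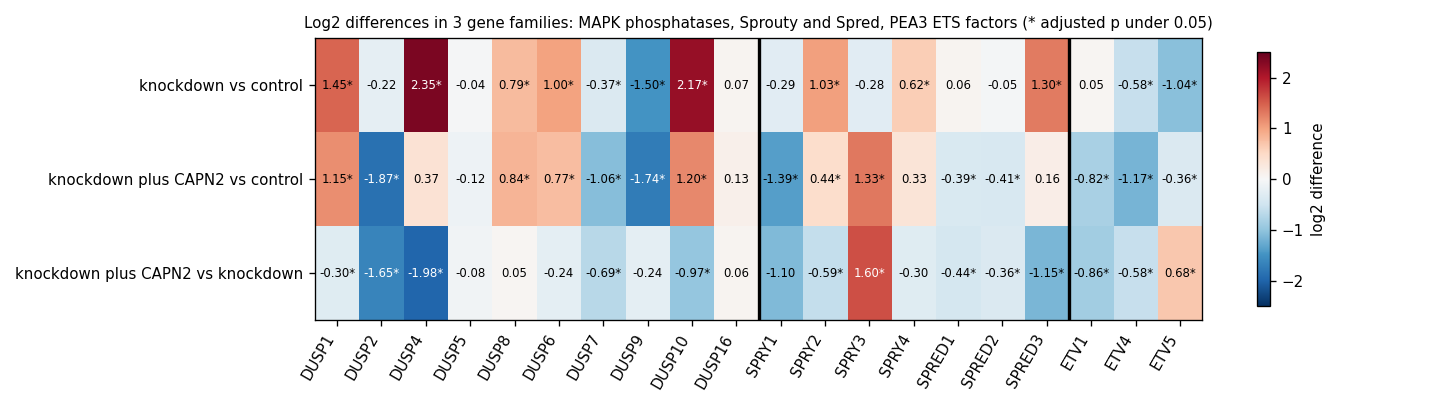
Log2 differences (colour and printed value) of 20 MAP kinase phosphatase, Sprouty, Spred and PEA3 genes (columns, families parted by black lines) in the 3 comparisons (rows); an asterisk marks an adjusted p under 0.05. DUSP4 (2.35) and DUSP10 (2.17) have the highest values in the upper row, and DUSP7 and DUSP9 are negative against control in both labelled groups.

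Of 26 other ETS factors 20 were tested. In the knockdown-labelled libraries against control 3 rose, 4 fell and 13 did not pass, with a median of 0.07 on the log2 scale, a share called near the 34.6% of all tested genes. ETS1 and ETS2, activators that ERK phosphorylates directly, rose by 0.87 ± 0.086 (adjusted p = 3.87e-07) and 0.84 ± 0.088 (adjusted p = 8.87e-07). ERF, a repressor that ERK exports from the nucleus, fell by 0.70 ± 0.125 there and by 1.23 ± 0.128 in the CAPN2-labelled libraries, a descent in the same order of groups as ETV4. The epithelial factor ELF3 fell by 0.58 ± 0.089 in the knockdown-labelled libraries against control and rose by 0.72 ± 0.089 between the labelled groups, the same pair of directions as ETV5. In the CAPN2-labelled libraries 4 rose and 7 fell against control, ELF4 among the latter (-0.64 ± 0.110), where 56.3% of all tested genes passed. Against the knockdown-labelled libraries 2 rose and 9 fell, with FLI1 at -0.78 ± 0.134 and ETS1 at -0.47 ± 0.086. There 49.2% of all tested genes passed, so both shares called were near those over all tested genes.

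Upstream, among 20 genes of the ERK cascade from RAS adaptors to ERK substrates, 4 rose, 5 fell and 11 did not pass in the knockdown-labelled libraries against control, and 5 rose, 8 fell and 7 did not pass in the CAPN2-labelled libraries. Over all tested genes 34.6% and 56.3% passed in these comparisons. The RAS exchange factor SOS2 rose by 0.89 ± 0.116 (adjusted p = 1.13e-05) and 1.68 ± 0.116 (adjusted p = 7.52e-10) in these comparisons, while its adaptor GRB2 fell by 0.83 ± 0.082 in the second (adjusted p = 7.62e-08). MAP2K2, one of both MEK genes, fell by 0.69 ± 0.112 in the knockdown-labelled libraries against control (adjusted p = 0.000107). The other MEK gene, MAP2K1, fell by 0.60 ± 0.088 between the labelled groups (adjusted p = 1.61e-05), and 216 of its exon bases are shared with SNAPC5 on the opposite strand. MAPK3, a MAP kinase gene named after its values were seen, fell by 0.54 ± 0.100 against control in the CAPN2-labelled libraries.

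In the 13 genes of the JNK and p38 cascades, 3 rose, 5 fell and 5 did not pass in the knockdown-labelled libraries against control, where 34.6% of all tested genes passed. The p38 gene MAPK11 rose by 1.18 ± 0.174 (adjusted p = 4.1e-05). Those called lower included the p38 gene MAPK13, from 138 to 108 CPM in the group means, and MAPK10, from 1.45 to 0.464 CPM. In the CAPN2-labelled libraries, 5 rose and 5 fell against control, where 56.3% of all tested genes passed, and the p38 activators MAP2K3 and MAP2K6 fell by 1.22 ± 0.091 (adjusted p = 2.1e-09) and 2.82 ± 0.256 (adjusted p = 2.51e-08). Between the labelled groups 2 rose and 6 fell, where 49.2% of all tested genes passed, with MAP2K3 at -0.96 ± 0.091 and MAP2K6 at -2.08 ± 0.263. The 2 that rose were MAP3K7 and MAPK10, which were also called higher in the CAPN2-labelled libraries than in control. The group means of MAP3K7 were 48.6, 53.9 and 72.9 CPM in control, knockdown-labelled and CAPN2-labelled libraries. MAPK10 stood at 3.85 CPM in the CAPN2-labelled libraries.

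Of 14 further genes known to follow ERK activity, 9 rose, 1 fell and 4 did not pass in the knockdown-labelled libraries against control, and 9 rose, 3 fell and 2 did not pass in the CAPN2-labelled libraries, where 34.6% and 56.3% of all tested genes passed. Their medians were 0.41 and 0.62 on the log2 scale, against -0.01 and 0.02 over all tested genes. This list was chosen with earlier results of these data known, so the set is described and was not tested. ERRFI1, an inhibitor of the EGF receptor, rose by 1.24 ± 0.084 and 1.26 ± 0.084 in these comparisons (adjusted p = 2.86e-09 and 4.42e-10), and PHLDA1 rose by 0.99 ± 0.089 and 1.14 ± 0.090. AREG, an EGF receptor ligand, rose by 1.46 ± 0.104 in the knockdown-labelled libraries (adjusted p = 5.05e-09). CCND1, which encodes cyclin D1, fell in both, with log2 differences of -0.57 ± 0.080 and -1.30 ± 0.081 (adjusted p = 2.51e-05 and 2.1e-10), in the direction of DUSP7 and ETV4; it shares 497 exon bases with LTO1 on the opposite strand. Between the labelled groups 2 of the 14 rose and 6 fell, where 49.2% of all tested genes passed. The immediate early factor EGR1 rose by 1.29 ± 0.107 (adjusted p = 1.43e-08). SPHK1 and CCND1 fell, from 23.8 and 1028 CPM in the knockdown-labelled libraries to 6.71 and 620 CPM in the CAPN2-labelled libraries. ERK output genes thus included members that rose and members that fell in each comparison, as the 10 genes did.

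Among 9 regulators of ETV4, ETV5 and Sprouty proteins, 1 rose, 2 fell and 6 did not pass in the knockdown-labelled libraries against control, a share near the 34.6% of all tested genes. CIC, which encodes the repressor Capicua, fell by 0.63 ± 0.100 (adjusted p = 7.71e-05) in these libraries and by 0.48 ± 0.099 (adjusted p = 0.00039) in the CAPN2-labelled libraries, in the same comparisons in which ETV4 and ETV5 were lower. ATXN1, whose protein forms a complex with Capicua, rose by 0.43 ± 0.118 and 1.79 ± 0.116 (adjusted p = 0.00785 and 3.07e-10), and by 1.36 ± 0.112 between the labelled groups. In that last comparison ATXN1 was the only one of the 9 to pass (up to 3 passed under other settings), where 49.2% of all tested genes passed. ATXN1L, from the same list, was called lower than control in both labelled groups. Its means were 243, 169 and 151 CPM in the control, knockdown-labelled and CAPN2-labelled groups, against 14.7, 19.8 and 50.8 CPM for ATXN1. In the CAPN2-labelled libraries against control 2 of the 9 rose, 3 fell and 4 did not pass, where 56.3% of all tested genes passed.

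Finally, the genes whose profile over the 9 libraries was most like that of DUSP4, DUSP6 and ETV5 were listed from 10367 protein-coding genes with a mean of at least 5 CPM. The libraries form 3 groups, so these correlations mainly compare the order of 3 group means, and they are given as a description only. For DUSP4 they were the Krüppel-like factor KLF5 (Pearson's r = 0.990), the deubiquitinase USP42 (0.986) and the stromelysin MMP3 (0.986), and 63 genes exceeded 0.95. MMP3 stood at 1.68 ± 0.211 CPM in control, 44.4 ± 8.31 in knockdown-labelled and 4.02 ± 0.755 in CAPN2-labelled libraries (SD, n = 3). For DUSP6 they were IGFBP3 (0.988), SLC15A4 (0.985) and IER3 (0.985), with 88 genes above 0.95. IGFBP3, which binds insulin-like growth factors, stood at 94.9 ± 6.84, 324 ± 22.1 and 237 ± 9.40 CPM in the same order of groups. For ETV5 they were KDF1 (0.977), DESI2 (0.975) and the transcription factor PAX9 (0.974), with only 12 genes above 0.95. PAX9 stood at 128 ± 1.72, 81.9 ± 5.50 and 114 ± 3.73 CPM.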

How the data were processed

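Total RNA of 9 FaDu samples was extracted with TRIzol and made into libraries with a NEBNext kit, per the labels' protocols; the kit does not mark strand. The authors deposited a table of raw read counts, not normalised, that lists 58735 genes. HISAT2 2.0.5, StringTie 1.3.3b, featureCounts 1.5.0-p3 and the build hg19 are named, per the submitters' processing notes. The coordinates in the deposited file matched GENCODE release 29 on GRCh38 for all 58735 identifiers, so positions are given on GRCh38. What strand setting was used, and how multiply mapped reads were handled, is not given in the sources used here.

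Counts were tested with edgeR 4.0.16 in R 4.3.3: filterByExpr (minimum count 10), TMM factors, and a robust quasi-likelihood fit of 1 term per group to all 9 libraries, which left 6 residual degrees of freedom. P-values were two-sided, with Benjamini-Hochberg adjustment across 16812 genes, and genes were called under 0.05. They measure the spread between these replicates of 1 cell line. Standard errors came from the fold change and its F statistic. CPM are TMM-scaled, and per-kilobase values use the deposited gene lengths. Alternatives were DESeq2 1.42.0, median-ratio and upper-quartile scaling, no filter, fits of only the 2 groups compared, a replicate block, a per-library spline correction (5 degrees of freedom) for GC content and length, that correction with the block, and leaving out each library.

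The 10 genes, the pathway lists and the motifs were chosen with earlier results of these data known. From each list, the text names genes among the 2 that rose and the 2 that fell with the lowest adjusted p in each comparison. DUSP16, ETV1 and MAPK3 fall outside that rule and were added after their values were seen. For DUSP4, DUSP6 and ETV5 the 3 most correlated genes were taken. Promoter sequences are from RefSeq (GRCh38.p14).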

Additional observations from a re-analysis of the deposited data

How the results depend on the processing

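The counts of genes and of the 10 members called kept within 1.5 times of the reported values under all 17 alternatives. With 7 or 8 of 10 members called, that limit could not be passed upwards, so it is a weak check of the member counts. Of 30 member results, 19 kept their direction and their side of the threshold under all alternatives. Same-numbered replicates did not deviate together (r from -0.111 to 0.063 over 9 pairs), so the numbers were not taken to pair the samples; with a replicate block 5376, 9149 and 7912 genes were called, and 8, 6 and 7 of the 10 genes, the loss being that of SPRY2 in the CAPN2-labelled libraries against control (adjusted p = 0.0611). With the GC and length correction added to the block, 7, 7 and 6 of the 10 genes were called. In the CAPN2-labelled libraries against control these were 4 higher and 3 lower, where 3 higher and 4 lower are reported. Upper-quartile scaling moved the median over all genes from 0.02 to 0.13 in the CAPN2-labelled libraries against control, so differences under that scaling are to be read against this shift. Low counts limit SPRY4, SPRY2 and DUSP4 most.

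Uncalled log2 differences that changed sign were these; the cause was not tested. Knockdown-labelled against control, with the GC and length correction alone and with the replicate block added: DUSP5 0.11 and 0.11, SPRED1 -0.16 and -0.16, ETV1 -0.20 and -0.22, AMIGO2 -0.090 and -0.088, and DUSP2 0.0030 without the block. In the same comparison DUSP5 was 0.0067 with upper-quartile scaling, and with 1 library left out in turn values ran from -0.086 to 0.030 for DUSP5, -0.38 to 0.015 for DUSP2, -0.11 to 0.24 for ETV1, -0.48 to 0.023 for SPRY1 and -0.062 to 0.090 for AMIGO2. CAPN2-labelled against control, with the same 2 corrections: DUSP5 0.15 and 0.15, CAPN2 -0.014 and -0.015; with 1 library left out SPRED3 ran from -0.033 to 0.33. Between the labelled groups DUSP5 was 0.039 and 0.039 with the corrections, and with 1 library left out DUSP8 ran from -0.13 to 0.15 and DUSP16 from -0.061 to 0.11. The number of regulators of ETV4, ETV5 and Sprouty proteins called between the labelled groups, 1 as reported, ran up to 3 over the alternatives.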
